A study of Mus musculus with 47 samples.

Results

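This account is of the cortex of mice harvested at Zeitgeber time 2 (ZT2), early in the light phase, and of what a diet containing PLX5622 changed there. Its members are the 8 libraries whose labels give that time, 4 from mice on control chow and 4 from mice on PLX5622 chow, out of 47 libraries in the series. All mice were young adult males of the C57BL/6J strain. PLX5622 is a small-molecule inhibitor of the colony stimulating factor 1 receptor (CSF1R), and it was given in chow at 1200 ppm for 10 days. Control mice received chow without it for the same number of days. Zeitgeber time counts the hours from lights on, and the other harvests were at ZT6, ZT10, ZT14, ZT18 and ZT22, with 39 libraries (19 control and 20 PLX5622, since 3 control libraries at ZT14 were analysed here). Each library is bulk RNA from the microdissected cortex of 1 mouse. The mice were housed 4 to a cage, and the labels do not say which mice shared one, so that an effect of the cage and one of the group cannot be told apart.

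Microglia are the resident macrophages of the brain. The receptor CSF1R, activated by CSF1 or IL34, keeps them alive. Their transcriptome is set by myeloid transcription factors such as PU.1, and they are known for C1q complement production, for lysosomal proteolysis and for sensing nucleotides through P2RY12. Macrophages at the borders of the brain, in the meninges and around vessels, depend on the same receptor. In bulk tissue, fewer cells of a type and less RNA per cell cannot be told apart.

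The 8 libraries at ZT2 held between 17840588 and 24901107 counts on genes. Control libraries had 18867605 ± 961349 counts and PLX5622 libraries 22019177 ± 2483254 (mean ± SD, n = 4 each; exact permutation test, two-sided, p = 0.0857, where 0.0286 is the smallest p that 4 against 4 mice allow). Mitochondrial transcripts took 8.78% ± 1.07 and 8.72% ± 0.548 of the counts (exact permutation p = 0.943). Some clock genes had their highest or lowest mean of the 6 times at ZT2, and others at the neighbouring ZT22. *Arntl*, which encodes BMAL1, and *Npas2* had their highest mean at ZT2 in both diets, whereas *Dbp* and *Ciart* had their lowest. *Nr1d1* had its lowest mean at ZT22 in both diets (35.5 TPM in control and 34.7 TPM in PLX5622 mice). *Per1* in control mice was also lowest at ZT22 (17.1 TPM). These means were not tested against the labelled hour. Expression is given in TPM (a measure of transcript abundance corrected for length and sequencing depth), and log2 fold changes (PLX5622 against control) are on the log2(TPM + 1) scale, which understates the change of genes with low values.

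At ZT2, PLX5622 mice kept a few percent of the control RNA of microglial genes, and few genes were higher. Of 14580 genes averaging 1 TPM or more over the libraries, 188 passed an adjusted p of 0.05 (1.29%; limma, Benjamini-Hochberg). Expression was lower in PLX5622 mice for 172 of them (1.18%) and higher for 16 (0.11%). In 168 of the 172 lower genes and in 13 of the 16 higher genes, the 4 PLX5622 libraries did not overlap the 4 control libraries. Over all genes tested, 399 (2.74%) lay wholly below control and 372 (2.55%) wholly above. Among the 172 lower genes, 40 had a log2 fold change below -2, 73 one between -2 and -1, 40 one between -1 and -0.5 and 19 a smaller one. Protein-coding genes made up 166 of the 172.

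The 3 chains of C1q, the first component of the classical complement pathway, were among the 4 genes with the lowest fold change, together with *Csf1r*. *C1qa* was measured at 107, 111, 104 and 126 TPM in control mice 1 to 4 and at 7.81, 1.77, 0.961 and 6.57 TPM in PLX5622 mice 1 to 4. PLX5622 mice thus kept 3.82% of the control mean, and the log2 fold change was -4.69 ± 0.447 (SE; adjusted p = 3.65e-10, limma). *C1qb* fell by 4.28 and *C1qc* by 4.11 on the log2 scale, and the 3 genes lie side by side on chromosome 4 (GRCm38, between positions 136880129 and 136898803). *Csf1r*, the target of the drug, was at 47.4, 47.7, 62.2 and 42.8 TPM in control mice and at 3.15, 0.557, 0.344 and 3.8 TPM in PLX5622 mice (log2 fold change -4.31 ± 0.434, adjusted p = 1.41e-09). In every one of these genes PLX5622 mice 2 and 3 were the lowest and mice 1 and 4 kept more.

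The next genes in order were *Ctss*, *P2ry12*, *Tyrobp*, *Fcer1g*, *Selplg*, *Laptm5*, *Cx3cr1* and *Fcrls*. *Ctss*, which encodes the lysosomal protease cathepsin S, was at 91.3, 90.7, 96.1 and 103 TPM in control mice and at 7.77, 2.34, 2.19 and 11.0 TPM in PLX5622 mice (log2 fold change -4.06). *P2ry12*, a purinergic receptor by which microglial processes find ATP, went from 36.1, 37.6, 44.4 and 57.0 TPM to 2.74, 1.18, 0.683 and 3.50 TPM. *Tyrobp*, the adaptor of TREM2 and of other receptors, went from 79.8 ± 1.15 to 5.60 ± 4.99 TPM (n = 4 each). The control mice lay close together in these genes, while the PLX5622 mice differed among themselves by several fold, as the plot of single mice shows. *Cx3cr1*, the receptor for neuronal fractalkine, kept 4.87% of the control mean, and *Fcrls*, an Fc receptor-like gene used as a microglial marker, 4.01%. All 12 genes were also lower at each of the 5 other times.

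**Figure D1:**
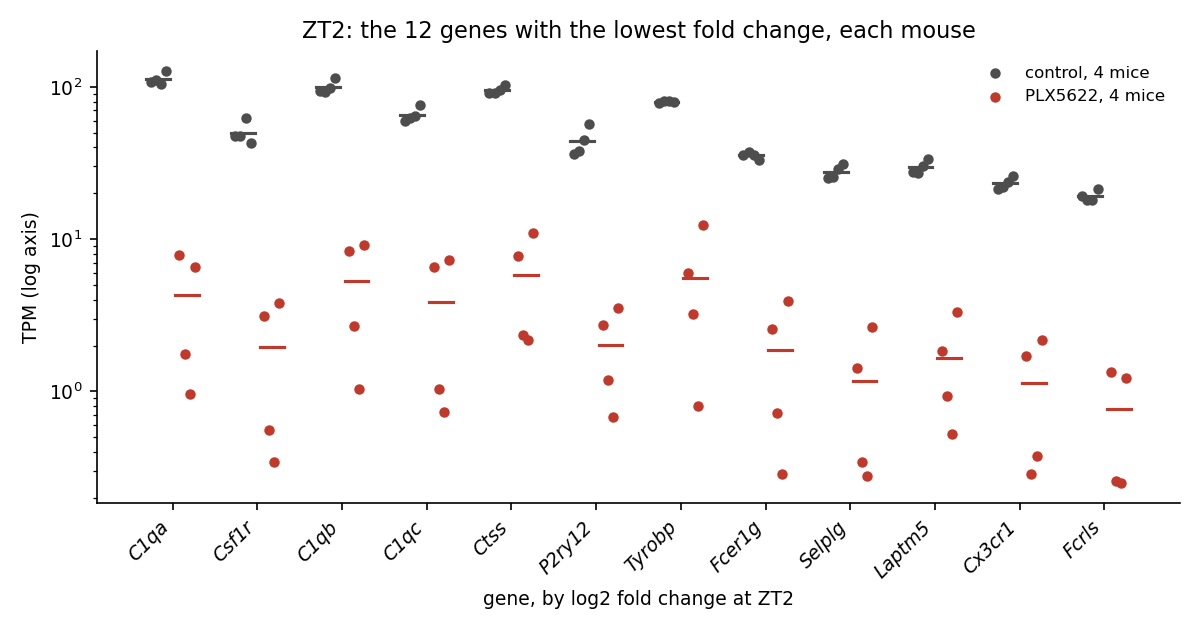
Expression in TPM (log axis) of the 12 genes with the lowest log2 fold change at ZT2. Points are single mice in the order of their numbers (grey control, red PLX5622, 4 each) and lines are means; every PLX5622 mouse lies below every control mouse, and mice 2 and 3 lie lowest, as in *C1qa* with 1.77 and 0.961 TPM.

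Of the list of 23 microglial surface and homeostatic genes, 21 had enough expression to be tested, and 20 of them were lower at ZT2, with none higher. The median log2 fold change of the 21 was -2.99, against 0.06 over all genes tested. *Trem2* fell by 2.97, *Tmem119* by 3.21 and *Siglech* by 3.56 on the log2 scale. *P2ry13*, a second nucleotide receptor, was left with 0.221, 0.0743, 0 and 0.216 TPM from a control mean of 7.94 ± 0.982 TPM. The exception was *Sall1*, a transcription factor of microglial identity, with 6.63, 8.52, 7.92 and 7.30 TPM in control mice against 4.88, 7.26, 7.26 and 4.49 TPM in PLX5622 mice. These values overlapped and did not pass the test (log2 fold change -0.32, adjusted p = 0.424), whereas over the other times *Sall1* was lower with an adjusted p of 3.84e-09. The difference between the *Sall1* effects did not pass either (0.26 ± 0.15, unadjusted p = 0.101).

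Some transcription factor genes of the myeloid program were lower at ZT2. *Spi1*, which encodes PU.1, was at 5.99, 6.45, 5.22 and 5.61 TPM in control mice and at 0.651, 0.823, 0.0636 and 0.499 TPM in PLX5622 mice. Of 13 myeloid transcription factors and regulators tested, 6 were lower in limma (*Spi1*, *Irf5*, *Irf8*, *Ikzf1*, *Tgfbr1* and *Cebpa*) and none higher. *Maf*, at -0.37 on the log2 scale, did not pass in limma. With edgeR on the counts, 8 of the 13 were lower, and so was *Runx1*, which lies below 1 TPM (adjusted p = 0.0135). Promoter sequences of 4 of the lowest genes are shown because each holds the letters GAGGAAG, a PU.1-type motif searched on both strands. The motif is in capitals, as GAGGAAG or as its reverse complement CTTCCTC, in windows from 250 bases before to 50 bases after the RefSeq start (GRCm38.p6). *C1qc* (chr4:136892865-136893164, minus strand) holds it with its first base at -194 from the start, *Ctss* (chr3:95526536-95526835, plus strand) at -1, *Laptm5* (chr4:130913066-130913365, plus strand) at -39 and *Fcrls* (chr3:87263475-87263774, minus strand) at -144.
C1qc: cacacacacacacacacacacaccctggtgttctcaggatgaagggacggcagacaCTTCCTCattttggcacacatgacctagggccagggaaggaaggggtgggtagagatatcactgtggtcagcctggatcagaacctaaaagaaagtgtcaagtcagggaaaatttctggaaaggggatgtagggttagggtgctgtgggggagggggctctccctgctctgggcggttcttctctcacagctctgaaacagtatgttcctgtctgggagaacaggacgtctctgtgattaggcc
Ctss: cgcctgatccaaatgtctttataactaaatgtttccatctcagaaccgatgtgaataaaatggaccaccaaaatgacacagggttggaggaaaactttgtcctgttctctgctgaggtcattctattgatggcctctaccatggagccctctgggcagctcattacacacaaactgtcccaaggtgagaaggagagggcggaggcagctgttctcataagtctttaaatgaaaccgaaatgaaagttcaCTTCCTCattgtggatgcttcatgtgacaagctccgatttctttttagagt
Laptm5: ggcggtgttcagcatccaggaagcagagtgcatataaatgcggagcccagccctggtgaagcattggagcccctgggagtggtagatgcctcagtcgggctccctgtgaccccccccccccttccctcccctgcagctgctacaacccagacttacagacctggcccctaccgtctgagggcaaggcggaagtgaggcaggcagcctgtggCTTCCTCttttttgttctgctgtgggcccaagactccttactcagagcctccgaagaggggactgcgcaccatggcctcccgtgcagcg
Fcrls: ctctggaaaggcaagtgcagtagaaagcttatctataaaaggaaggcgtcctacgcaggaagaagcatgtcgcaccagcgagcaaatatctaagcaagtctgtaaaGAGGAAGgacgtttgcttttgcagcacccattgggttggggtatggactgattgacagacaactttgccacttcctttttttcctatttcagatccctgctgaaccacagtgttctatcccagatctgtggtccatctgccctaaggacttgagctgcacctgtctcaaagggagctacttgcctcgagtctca
Windows were given for 129 of the 172 lower genes, and 41 of them held the motif (31.8%). Over all genes tested, 1399 of 10876 windows held it (12.9%), and of the 14 microglial list genes with a window 7 did (50%). A match of letters is a description of the sequence and does not show binding.

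Genes of complement, phagocytosis and lysosomal proteolysis were lower in part. Of 12 complement genes tested, 5 were lower, among them the C1q chains and the complement receptor subunit *Itgb2*. *C4b*, at 7.74 ± 1.70 TPM in control and 10.8 ± 1.28 TPM in PLX5622 mice, did not pass the test at ZT2 (log2 fold change 0.45, adjusted p = 0.168), and neither did the other 6. Among members below 1 TPM, edgeR on the counts called *C3ar1* (adjusted p = 4.56e-05), *C5ar1* (0.00408) and *C5ar2* (0.00351) lower. It did not call *C3*, *C1s1*, *C1ra* or *Cd46*. Of 12 Fc receptor and phagocytosis genes, 6 were lower in limma, all of them Fc receptor genes or *Cd14*. The apoptotic cell receptors *Mertk* and *Axl* and their ligand genes *Gas6* and *Pros1* did not pass there. With edgeR, 7 of the 12 were lower. Among members below 1 TPM, edgeR called *Tlr7* (adjusted p = 5.43e-05), *Tlr2* (0.0414) and *Tlr4* (0.0492) lower, and not *Cd36*. Of 19 lysosomal genes, 8 were lower in limma and 12 in edgeR. *Ctss*, *Lyz2* and *Cd68* fell by 1.44 to 4.06 on the log2 scale, and *Ctsd*, *Ctsz*, *Ctsc* and *Cst3*, which other brain cells also express, fell by 0.45 to 0.70. Cathepsin genes *Ctsb* and *Ctsl* had log2 fold changes of 0.14 and 0.13 and did not pass in limma.

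Of 13 antigen presentation genes tested, 12 were below 0, with a median log2 fold change of -0.31. Over all genes tested, 36.3% were below 0, the median was 0.06 and 1.18% were called lower. *H2-Eb1*, *H2-Aa*, *H2-Ab1* and *Cd74*, the MHC class II genes and their invariant chain, were the 4 that passed in limma, and edgeR called 6 lower, with *B2m* and *Psmb8* added. No test compared the classes. *H2-Eb1* was at 5.09, 6.23, 8.41 and 3.03 TPM in control mice and at 1.17, 2.17, 0.926 and 1.10 TPM in PLX5622 mice (log2 fold change -1.48 ± 0.279, adjusted p = 0.000625). The class I genes *H2-K1* and *H2-D1* had log2 fold changes of -0.16 and -0.12 and did not pass, and *B2m*, at -0.37, did not pass in limma (adjusted p = 0.189) but did with edgeR on the counts (adjusted p = 0.00895). None of the 14 interferon response genes and none of the 7 blood genes passed at ZT2, which lies near the 1.29% of all genes that did.

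Markers of border macrophages were lower as well, although most lie below 1 TPM in cortex. Of the 3 tested, *Pf4* and *Stab1* passed, and *Cbr2* did not (log2 fold change -1.16). *Stab1*, a scavenger receptor gene, was at 6.90, 5.76, 5.62 and 4.46 TPM in control mice and at 0.870, 1, 2.36 and 0.875 TPM in PLX5622 mice, with mouse 3 the highest of the 4. *Mrc1*, which encodes the mannose receptor CD206, went from 1.17, 1.26, 1.10 and 1.08 TPM to 0.0730, 0, 0.0109 and 0.0190 TPM. Of the list, 9 members lay below 1 TPM, of which edgeR tested 8 on the counts and called 5 lower. *Mrc1* had an adjusted p of 1.08e-12, *F13a1* of 5.11e-07, *Ms4a7* of 4.44e-05, *Cd209f* of 0.0023 and *Lyve1* of 0.0407 in edgeR. *Cd163* (log2 fold change -0.55, edgeR adjusted p = 0.424), *Siglec1* (-2.12, adjusted p = 0.205) and *Ms4a6c* (-2.85, adjusted p = 0.103) did not pass.

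The ligand genes of the blocked receptor did not pass the test. *Il34*, made mainly by neurons, was at 49.1 ± 4.29 TPM in control and 50.4 ± 13.8 TPM in PLX5622 mice, and *Csf1* at 6.37 ± 0.514 and 6.4 ± 0.879 TPM. Their log2 fold changes were within 0.01 of 0, with SEs of 0.183 and 0.106. Of the 9 ligands and related receptors tested, *Csf1r* and *Csf3r*, a granulocyte colony stimulating factor receptor gene that microglia also express, were lower. The related kinases *Kit*, *Flt3*, *Pdgfra* and *Pdgfrb* did not pass.

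Most genes lower at ZT2 were lower at the other times too. Genes lower at single other times numbered 141 at ZT6, 148 at ZT10, 129 at ZT14, 113 at ZT18 and 182 at ZT22 (0.967%, 1.02%, 0.885%, 0.775% and 1.25% of those tested). Higher genes numbered 6, 8, 3, 5 and 7 at those times (0.0412%, 0.0549%, 0.0206%, 0.0343% and 0.048%), and whether the 16 at ZT2 exceed these was not tested. Over the 5 other times together, whose control mice are separate animals, 347 genes passed (2.38%), of which 287 were lower (1.97%) and 60 higher (0.412%). Of the 172 genes lower at ZT2, 161 (93.6%) were lower over the other times too. Those 161 are 56.1% of the 287. At 5 of the 5 single other times, 97 of the 172 were called lower, and at none of them 24. The median log2 fold change of the 172 was -1.34 at ZT2 and -1.07 over the other times. Since these 172 genes were chosen by their values at ZT2, the 287 genes chosen at the other times give the opposite view. Of the 287, 205 (71.4%) had the lower fold change at ZT2, against 5788 of all 14580 genes. The 287 genes were measured in the same mice and are not independent. The medians of the 287 were -0.68 at ZT2 and -0.61 over the other times. Without PLX5622 mice 2 and 3, 181 of the 287 (63.1%) had the lower fold change at ZT2, against 7168 of all 14580 genes (49.2%). The ZT2 medians were then -1.21 for the 172 genes and -0.68 for the 287. *C1qa* was then at -3.79 and *Csf1r* at -3.50 at ZT2, against -3.55 and -3.40 over the other times, and *C1qb* at -3.37 was less low than its -3.50 there. Mice 2 and 3 kept the least microglial RNA at ZT2, and no mice were left out at the other times, so this comparison is not balanced.

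**Figure D2:**
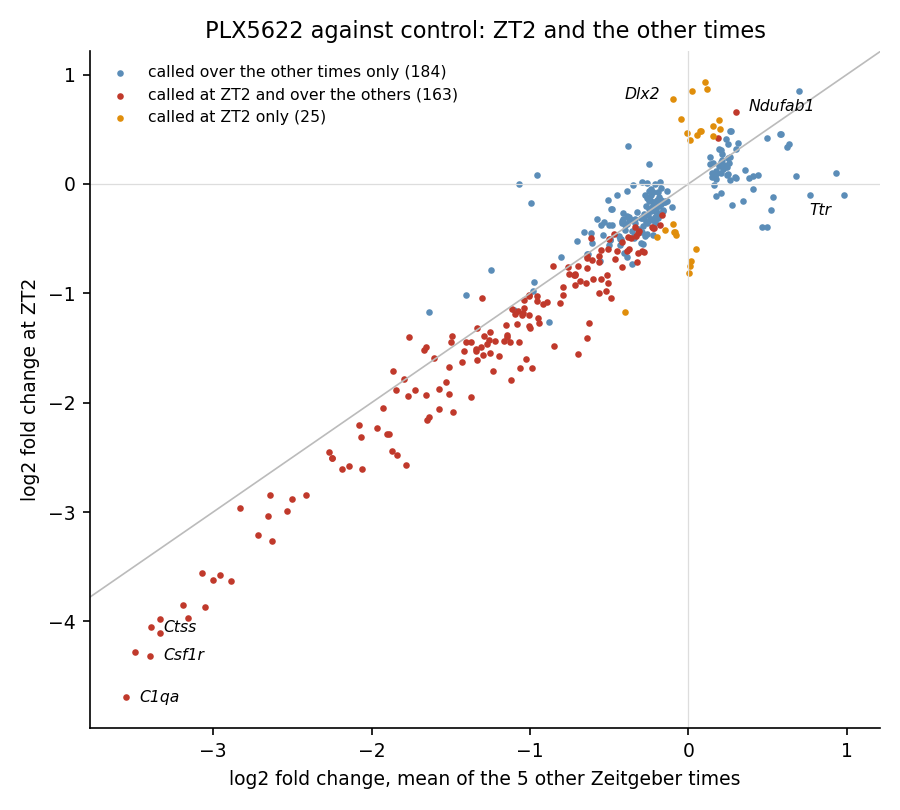
Log2 fold change at ZT2 (vertical) against the mean of the 5 other times (horizontal) for genes called in either; the grey line marks equality. Genes called in both (163, red) lie mostly below the line at the lower left, as *C1qa* with -4.69 against -3.55, and genes called higher at ZT2, such as *Dlx2* with 0.77 against -0.10, lie near 0 horizontally.

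The microglial RNA that remained varied between the mice at ZT2. The median of the 21 microglial genes, each as a percent of the control mean of its own time, was 7.62%, 3.59%, 1.79% and 10.4% in PLX5622 mice 1 to 4 at ZT2. Their mean of 5.84% ± 3.88 was the lowest of the 6 times, whose other means ran from 7.58% at ZT14 to 14.2% at ZT18. The lowest 2, mice 2 and 3, also held the most RNA of olfactory bulb genes at ZT2 (123 and 80.3 TPM, described below). Mice 2 and 3 lay below the ZT14 mean and mice 1 and 4 above it. The 20 PLX5622 mice of the other times ranged from 3.43% to 18.4% with a median of 11.3%, so that mice 2, 1 and 4 at ZT2 lay within that range and mouse 3 below it. *C1qa* kept 3.82% of control at ZT2 and 8.97% over the other times, and the difference of its log2 fold changes was -1.14 ± 0.49 (unadjusted p = 0.0251). Across the microglial list, 20 of 21 differences were below 0, against 5788 of all 14580 genes. Their median was -0.42, and 3 had an unadjusted p under 0.05. The 21 genes were measured in the same mice and are not independent. Without mice 2 and 3, 16 of the 21 differences were below 0, against 7168 of all 14580 genes (49.2%). The median fold change of the list was then -2.64 at ZT2 against -2.65 over the other times. Mice 2 and 3 were the lowest at ZT2 and no mice were left out at the other times. Leaving them out thus makes the difference smaller by construction. No gene of the list passed the adjusted test of the difference (smallest adjusted p = 0.999, limma).

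**Figure D3:**
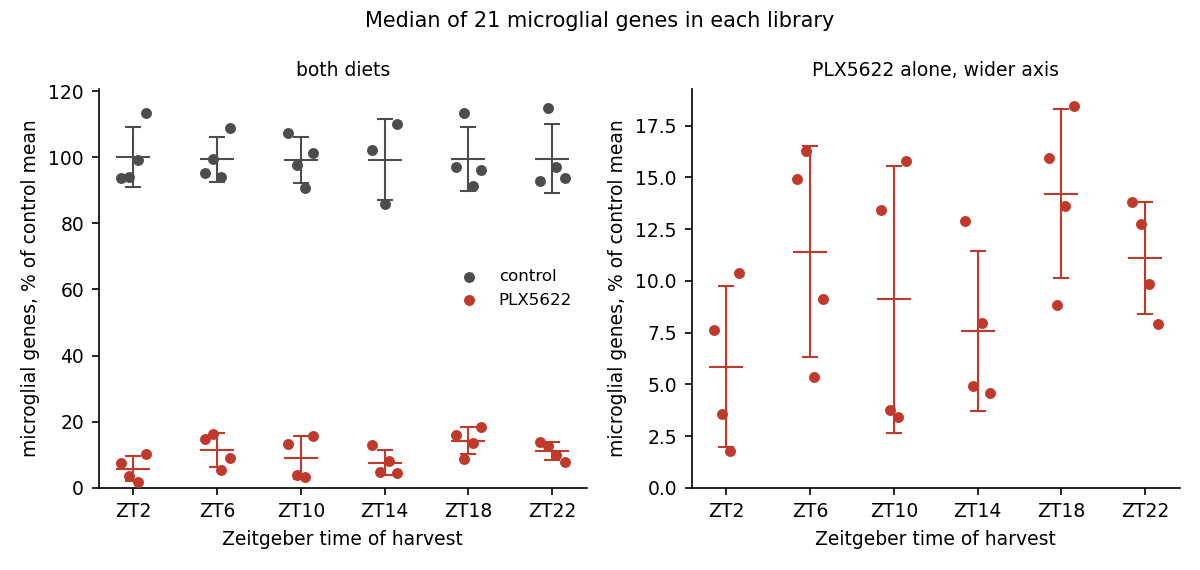
Median expression of 21 microglial genes in each library, as a percent of the control mean at the same Zeitgeber time, for both diets (left) and for PLX5622 alone (right). Points are mice and bars are mean ± SD (n = 4, or 3 for control at ZT14); PLX5622 mice at ZT2 average 5.84%, and their range of 1.79% to 10.4% overlaps that of every other time.

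Across all genes, no difference between the ZT2 effect and the mean of the other effects passed. The count was 0 of 14580 with limma (0%), 0 with edgeR and 0 with DESeq2 on the counts, with 524, 902 and 1003 genes at an unadjusted p under 0.05 and a smallest adjusted p of 0.906 in limma. The same contrast for each other time also gave 0 genes, with 339 to 840 at an unadjusted p under 0.05. On simulated data for 14442 genes, limma recovered 80.5% of 200 genes whose effect at ZT2 differed by 1 on the log2 scale. The 200 were drawn at random, counts were independent between genes, and no gene was depleted at the other times. The recovery thus does not hold for the depleted microglial genes. Simulated TPM were made from the simulated counts with a fixed length per gene, so the recovery need not hold for the deposited TPM. The -1.14 of *C1qa* was one difference of about 1 on the log2 scale that did not pass. The genes below are given as values.

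The smallest p of the difference belonged to *Mettl11b*, which encodes an N-terminal methyltransferase. It was at 1.5, 1.88, 2.19 and 1.77 TPM in control mice and at 1.06, 0.258, 0.555 and 0.645 TPM in PLX5622 mice at ZT2, without overlap, and at a mean of 1.07 TPM in both diets at the other times. The ZT2 effect passed (log2 fold change -0.82, adjusted p = 0.00206), but the difference did not (unadjusted p = 6.21e-05, adjusted p = 0.906), and in edgeR the ZT2 effect had an adjusted p of 0.114. The control mice at ZT2 were thus above both diets elsewhere, and the PLX5622 mice below. *Fam205c* was at 11.5 ± 0.888 TPM in control and 6.52 ± 1.49 TPM in PLX5622 mice at ZT2, but its counts gave a log2 fold change of -0.24 (edgeR adjusted p = 0.510). *Elmod3*, at 18.7 ± 3.64 and 13.9 ± 0.628 TPM, did not pass at ZT2 (adjusted p = 0.0578).

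In all, 11 of the 172 lower genes were not called over the other times. Most had small changes. *Khk*, the ketohexokinase that phosphorylates fructose, was at 20.1, 18.3, 19.9 and 18.5 TPM in control mice and at 11.1, 12, 15.6 and 16.6 TPM in PLX5622 mice (log2 fold change -0.46, adjusted p = 0.0331; -0.08 over the other times). *Pxn*, which encodes the focal adhesion protein paxillin, had a log2 fold change of -0.44 at ZT2 and -0.08 elsewhere, and it was the only one of *Khk*, *Pxn*, *Gas2l1*, *Ssbp4*, *Srgn* and *Rplp1* that edgeR also called (adjusted p = 0.00707). *Srgn*, the proteoglycan core protein serglycin, went from 15.6 ± 0.884 to 11.0 ± 2.16 TPM. *Rplp1*, a ribosomal protein gene with many near-identical copies whose reads are hard to assign, went from 5120.1 ± 723 to 3805 ± 401 TPM.

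Of the 16 genes called higher at ZT2, 13 were above 0 over the other times too. Of the 16, *Ndufab1* and *Selenok* were called higher there (12.5%, against 0.412% of all genes). These 2 are 3.33% of the 60 called higher over the other times, against 0.11% of all genes called higher at ZT2. The control mean at ZT2 was the lowest of the 6 control times in 10 of the 16 genes, and 1 of the 2 lowest in 14. The 16 were chosen against these same control mice, and the share of low control values in their fold changes was not tested. *Ndufab1*, the mitochondrial acyl carrier protein, was at 141, 116, 138 and 116 TPM in control mice and at 186, 238, 219.6 and 168 TPM in PLX5622 mice, without overlap (log2 fold change 0.66 ± 0.139, adjusted p = 0.00334). Its counts did not follow, with an edgeR log2 fold change of 0.04 (adjusted p = 0.895). *Gpatch11*, a G-patch protein gene, showed the same split, with 19.2, 19.5, 16.3 and 20.7 TPM against 37.6, 38.3, 34.8 and 30.6 TPM but an edgeR log2 fold change of 0.26 (adjusted p = 0.141). The TPM were made by transcript quantification and the counts per gene, and the part of that in these gaps was not tested. All 16 genes were above 0 in edgeR, and 7 passed there: *Dlx2*, *Epha3*, *Apold1*, *Rasa1*, *Nsdhl*, *Hmgb3* and *Ypel5*.

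*Dlx2*, a homeobox factor of GABAergic interneurons and their progenitors, was at 2, 2.27, 2.17 and 3.31 TPM in control mice and at 3.81, 5.99, 6.66 and 3.44 TPM in PLX5622 mice (log2 fold change 0.77 ± 0.203, adjusted p = 0.0411; edgeR 1.01, adjusted p = 0.0148). Mice 2 and 3 were the highest. *Dlx1as*, which overlaps *Dlx1* on the other strand so that their reads may not be told apart, had a log2 fold change of 0.94 with overlapping groups. *Gad1* and *Gad2*, the GABA synthesis genes, had values of 0.60 and 0.48 that did not pass, and *Calb2*, which encodes calretinin, was at 22, 90.2, 58.9 and 17.1 TPM in PLX5622 mice against 18.1 ± 4.43 TPM in control mice. None of the 14 interneuron genes passed in limma, where 1.29% of all genes did, and *Pvalb* and *Sst* had log2 fold changes of -0.18 and 0.27.

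The same 2 mice carried RNA of genes typical of the olfactory bulb, which lies next to the frontal cortex. *Doc2g*, a bulb-enriched gene, was at 15.9, 8.45, 1.41 and 4.44 TPM in control mice and at 10.6, 81.6, 41.3 and 3.27 TPM in PLX5622 mice. *Th*, which encodes tyrosine hydroxylase and marks bulb dopamine interneurons, was at 3.05, 19.6, 11.7 and 2.80 TPM in PLX5622 mice against 2.53 ± 0.313 TPM in control mice. The summed level of 7 such genes (chosen after their values were seen) was between 5.92 and 23.3 TPM in control mice and 18.8, 123, 80.3 and 10.9 TPM in PLX5622 mice 1 to 4. Over the other times the sum ranged from 6.81 to 129.7 TPM in both diets. Without PLX5622 mice 2 and 3, none of the 16 higher genes passed, although all 16 kept a fold change above 0. *Dlx2* then had 0.44 in place of 0.77, while *Gpatch11* had 0.81 in place of 0.87, *Dlx1as* 0.86 in place of 0.94, *Apold1* 0.55 in place of 0.59 and *Nsdhl* 0.37 in place of 0.44. With PLX5622 mice 1 and 4 left out instead, 12 of the 16 passed among 45 higher genes. Of the 172 lower genes, 122 still passed without mice 2 and 3. Whether the bulb RNA or the smaller number of mice had a part in the lost calls was not tested.

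Other higher genes lay in several functions. *Apold1*, an endothelial early response gene, was at 1.20, 1.15, 1.04 and 1.66 TPM in control mice and at 2.02, 2.74, 2.25 and 2.60 TPM in PLX5622 mice (log2 fold change 0.59, adjusted p = 0.0424). *Epha3*, an ephrin receptor gene, went from 0.873 ± 0.120 to 1.74 ± 0.559 TPM with mouse 3 the highest, and *Rasa1*, a Ras GTPase activating protein gene, from 13.7 ± 1.32 to 19.6 ± 2.32 TPM. *Haus1*, a subunit of the augmin complex of the spindle, was at 7.17, 7.74, 7.59 and 7.48 TPM in control mice and at 11.6, 13.1, 10.2 and 8.56 TPM in PLX5622 mice. Its control mean at the other times was 9.51 TPM. The remaining genes were *Wdr3*, *Snrpd3*, *Rbbp4* and *Itsn2*, which did not pass in edgeR.

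**Figure D4:**
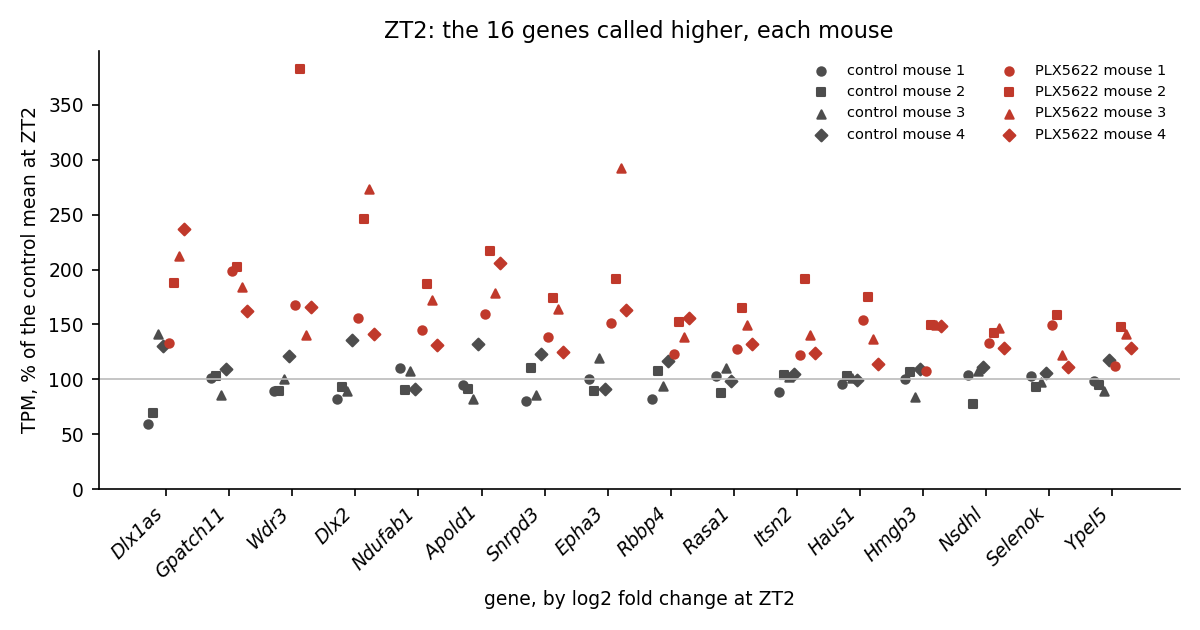
Expression of the 16 genes called higher at ZT2, as a percent of the control mean at ZT2 (grey line at 100%); symbols mark the 4 mice of each diet. PLX5622 mice 2 (squares) and 3 (triangles) are often the highest, as in *Dlx2* with 5.99 and 6.66 TPM, and 13 of the 16 genes have no overlap between diets.

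The number of higher genes also turned on single mice. It was 2 without PLX5622 mouse 2, 5 without PLX5622 mouse 3, 5 without control mouse 1, 6 without control mouse 2 and 32 without control mouse 4. Lower genes numbered 148 to 172 when any 1 of the 8 mice was left out.

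*Nsdhl*, a sterol dehydrogenase of cholesterol synthesis, was at 11.4, 8.47, 11.8 and 12.1 TPM in control mice and at 14.6, 15.5, 16.1 and 14.1 TPM in PLX5622 mice (log2 fold change 0.44 ± 0.108, adjusted p = 0.0213). It alone of 21 cholesterol genes passed, in limma and in edgeR. Of the 21, 17 had a fold change above 0 and the median was 0.19, against 0.10 over the other times and 0.06 over all genes at ZT2. *Insig1*, a regulator of sterol sensing, had a log2 fold change of 0.31 and did not pass. In the list of heat-shock and cold-inducible genes, 15 of 16 were above 0, as were 63.7% of all genes tested. None passed in limma, where 1.29% of all genes did, while edgeR called *Cirbp* higher (adjusted p = 0.0425). *Hsp90aa1*, the inducible HSP90 chaperone, had 298 ± 63.1 TPM in control and 383 ± 57.2 TPM in PLX5622 mice (adjusted p = 0.501).

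Choroid plexus genes had lower fold changes at ZT2 than over the other times, but no difference passed (smallest adjusted p = 0.999, limma). The choroid plexus makes cerebrospinal fluid, lies in the ventricles and can be carried into a cortical dissection. Over the other times, 4 of the 11 genes tested were higher in PLX5622 mice, and their median log2 fold change was 0.38. At ZT2, none passed and the median was -0.10. *Ttr*, the transthyretin gene, was at 1060, 781, 909.9 and 586 TPM in control mice and at 937, 593, 610.3 and 984 TPM in PLX5622 mice at ZT2, with full overlap. At the other times its means were 449.7 TPM in control and 776 TPM in PLX5622 mice (log2 fold change 0.98, adjusted p = 0.0312). The sum of the 12 listed genes, with *Slc4a5* from below the limit, averaged 1020.3 ± 207 TPM (SD) in control and 972 ± 228 TPM in PLX5622 mice at ZT2. At the other times its medians, and not means, were 542 and 966 TPM. Control mice at those times ranged from 161 to 1375 TPM, which holds all 4 control mice of ZT2. All 11 genes tested had a difference below 0, against 5788 of all 14580 genes. The 11 were measured in the same mice and are not independent. In limma 2 had an unadjusted p under 0.05, *Kl* (-0.76 ± 0.29) and *Sostdc1* (-0.65 ± 0.27). Whether this reflects dissection was not tested.

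Few genes of the lists for astrocytes and other cells of the cortex passed in limma at ZT2, where 1.29% of all genes did, so that a count of 0 in a short list lies near that background. None of 14 astrocyte genes passed. *Gfap*, the intermediate filament of reactive astrocytes, was at 171, 160, 184 and 108 TPM in control mice and at 267, 282, 174 and 146 TPM in PLX5622 mice, with overlap (log2 fold change 0.45, adjusted p = 0.498), while over the other times it was higher by 0.58 (adjusted p = 5.16e-05). The difference between these effects was -0.13 ± 0.24. Of 16 astrocyte reactivity genes, *Srgn* alone passed in limma, in the direction of a decrease, and microglia express it as well. In edgeR *Srgn* did not pass (adjusted p = 0.161) and *Psmb8*, an immunoproteasome subunit gene, was lower (adjusted p = 0.0104). *Serpina3n* had no overlap, with 5.60 to 8.16 TPM in control and 8.26 to 11.6 TPM in PLX5622 mice, and did not pass (adjusted p = 0.226).

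None of 14 oligodendrocyte and myelin genes passed, with values from -0.28 for *Mbp* to 0.43 for *Aspa*, and none of 15 precursor genes. No gene passed among 14 neuronal genes, 15 endothelial and blood-brain barrier genes, 14 mural and fibroblast genes and 12 striatal genes. Perineuronal nets are matrix structures around interneurons that the study examined, and none of their 8 genes tested passed. Their log2 fold changes lay between -0.23 (*Hapln2*) and 0.19 (*Ptprz1*). *Acan*, the aggrecan gene, was below the expression limit, with 0.374 ± 0.151 TPM in control and 0.583 ± 0.188 TPM in PLX5622 mice (edgeR log2 fold change 0.54, adjusted p = 0.411). None of 13 matrix protease and inhibitor genes passed. For these short lists too, such a count lies near the 1.29% of all genes that passed.

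**Figure D5:**
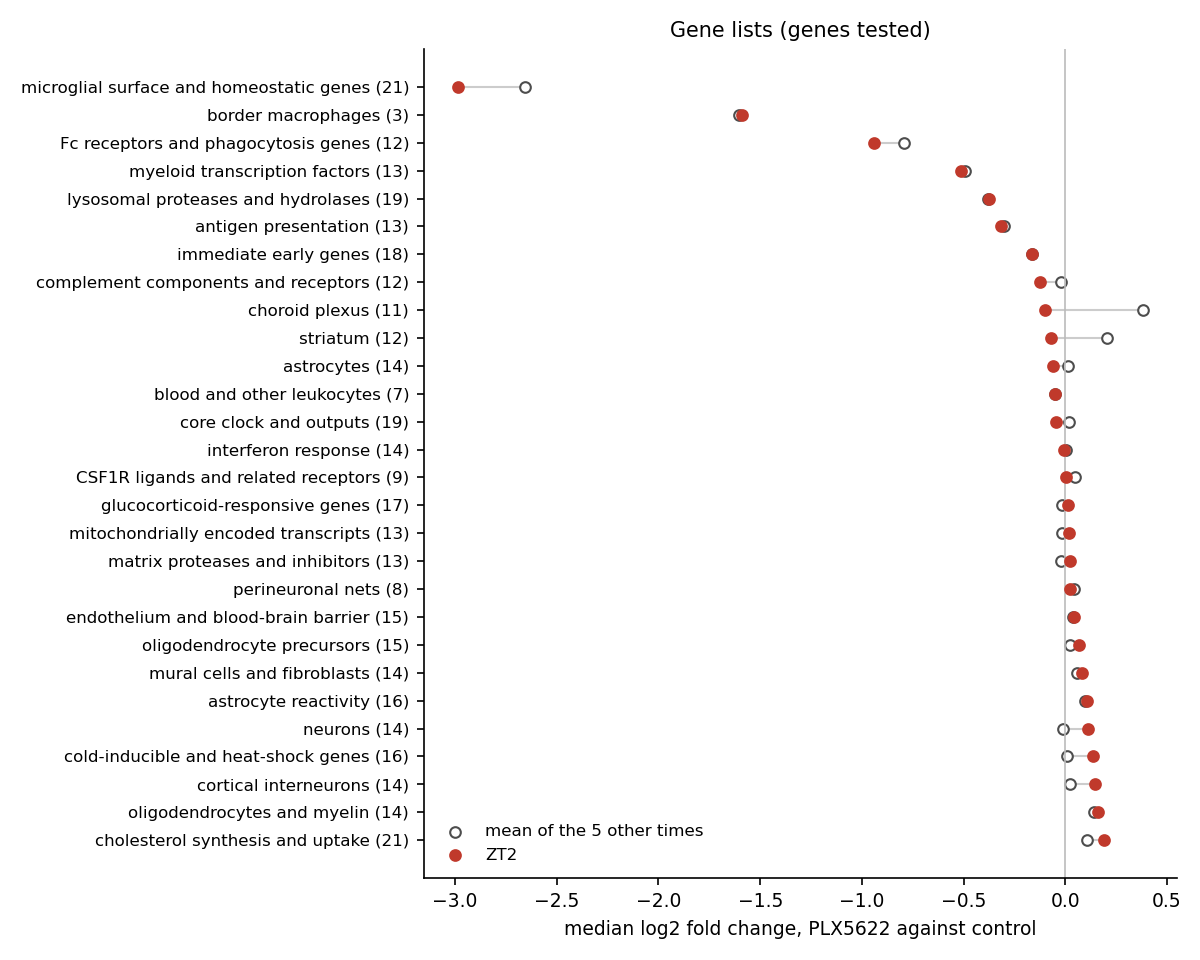
Median log2 fold change of each gene list at ZT2 (red) and over the mean of the 5 other times (open), with the number of genes tested in parentheses. The microglial list stands at -2.99 at ZT2 against -2.65, and the choroid plexus list at -0.10 against 0.38.

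None of 19 clock and clock output genes passed at ZT2. Since 1.29% of all genes did, a count of 0 here and in the short lists below lies near that background. *Per1* was at 15.8, 15.5, 16.2 and 25.3 TPM in control mice and at 12.3, 12.3, 16.3 and 15.4 TPM in PLX5622 mice, with control mouse 4 apart from the rest (log2 fold change -0.33, adjusted p = 0.581). *Dbp*, a direct output of the clock, had no overlap, with 45.8 to 55.8 TPM in control and 38.8 to 45 TPM in PLX5622 mice, and did not pass (log2 fold change -0.28, adjusted p = 0.318). *Arntl* had a log2 fold change of 0.21 (adjusted p = 0.566). Control mouse 4 was also the highest in *Arc*, a synaptic immediate early gene, which was at 44.9, 53.7, 38.3 and 95.7 TPM in control mice and at 37.8, 21.8, 21.2 and 59.0 TPM in PLX5622 mice. None of 18 immediate early genes, 17 glucocorticoid-responsive genes or 13 mitochondrially encoded transcripts passed in limma, while edgeR called *mt-Co2* higher (adjusted p = 0.00512). The median log2 fold changes of these 3 lists were -0.16, 0.01 and 0.02.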

How the data were processed

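Per the file headers and the study's methods, the authors mapped reads to GRCm38.p6 with STAR and computed the deposited TPM with Salmon and a Gencode annotation (54281 genes). The second deposited table carries FPKM in its name and holds whole-number counts (54532 genes, 53068 of them in both tables); the submitters' processing notes name featureCounts and mm10, and strand use is not given in the sources used here. Groups came from the labels. TPM were tested as log2(TPM + 1) with limma 3.58.1 (R 4.3.3) in 1 fit of 12 group means over 47 libraries, for genes averaging 1 TPM or more, 2-sided, Benjamini-Hochberg adjusted p under 0.05. Contrasts were the diet effect at ZT2, its mean over the 5 other times and their difference. The shared spread of all groups was used because 4 against 4 mice give few degrees of freedom. Library measures were compared with exact permutation tests. The limma, edgeR and DESeq2 steps were tested on simulated data, where limma recovered 84% of 200 genes seeded with a log2 change of 1 at ZT2 among 14442 genes (4.55% of calls false). The simulated TPM were made from simulated counts with a fixed length per gene. These rates thus need not hold for the deposited TPM, which came from transcript quantification.

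Named genes were the 12 lowest and 12 highest fold changes among called genes without overlap, 6 per side with the smallest p of the difference, the 5 largest per direction over the other times, and members of 28 gene lists. *Dlx1as*, *Hmgb3*, *Ypel5*, *Selenok*, *Khk*, *Pxn*, *Gas2l1*, *Ssbp4*, *Rplp1* and the olfactory bulb genes were chosen after their values were seen. The members and lists were chosen with earlier results of these data known. Gene positions are from GENCODE M21, and promoter windows from RefSeq.

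Alternatives were other filters, a pseudocount of 0.1, other scalings, edgeR 4.0.16 and DESeq2 1.42.0 on the counts, the replicate number as a block, a mitochondrial covariate, 3 residual principal components, eBayes with a trend, ZT2 alone, ZT22 and ZT6 as reference, a threshold of 0.01 and each mouse left out. Leaving out pairs of PLX5622 mice was added after seeing the data. Tables and figures used Python 3.11.15, numpy 2.4.6, pandas 2.3.3, scipy 1.17.1 and matplotlib 3.10.9. Images and staining were not analysed here, and single values of some genes are not reported here.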

Additional observations from a re-analysis of the deposited data

Results flagged for a closer look

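Within the groups of 4 mice at ZT2, 224 groups (112 genes in each diet) were examined for 1 mouse far from the other 3, of which chance gives 1 in 20, or 11.2. There were 13, of which 12 are given here. In PLX5622 mice, *Wdr3* was at 15.9 TPM in mouse 2 against 5.82 to 6.96 TPM in the others, *Cck*, a neuropeptide gene, at 706.8 TPM in mouse 2 against 858.3 to 881.1 TPM, *Stab1* at 2.36 TPM in mouse 3 against 0.870 to 1 TPM, *Chordc1*, a cochaperone gene, at 45.2 TPM in mouse 3 against 29.3 to 30.4 TPM, and *2900040C04Rik* at 17.8 TPM in mouse 4 against 11.2 to 12.2 TPM. In control mouse 4, *Per1* was at 25.3 TPM against 15.5 to 16.2 TPM, *Lamp1*, a lysosomal membrane gene, at 242.7 TPM against 200.5 to 206.9 TPM, and *Sox6*, a transcription factor of oligodendrocyte precursors and interneurons, at 15.6 TPM against 5.01 to 6.28 TPM. In control mouse 1, *Itsn2* was at 12 TPM against 13.8 to 14.1 TPM, *Aspa* at 12.4 TPM against 15.5 to 16.1 TPM and *Gm42902* at 6.18 TPM against 8.88 to 9.01 TPM. In control mouse 3, *Hsf1*, the heat shock factor, was at 24.0 TPM against 21.3 to 21.6 TPM.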

How the results depend on the processing

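The 12 lowest genes kept their direction and their call under all 24 settings tried (288 of 288 values), and the 12 highest kept their direction in 285 of 285 values and lost the call in 134. No named gene changed sign while called. The counts of called genes moved more. At ZT2 (188, with 172 lower and 16 higher), lower genes numbered 261 without a filter. A mean of at least 5 TPM gave 78 (69 lower, 9 higher), edgeR on the counts 380 (343 and 37), DESeq2 448 (394 and 54), the mitochondrial share as a covariate 390 (189 and 201), 3 residual principal components 1437 (443 and 994) and ZT2 alone 3 higher genes. A threshold of 0.01 left 1 higher gene. Without PLX5622 mice 2 and 3 there were 123 genes (0 higher), and without mice 1 and 4 there were 45 higher genes. Leaving out each of the 8 mice in turn gave 150 to 194 genes, 148 to 172 lower and 2 to 32 higher. The residual components are orthogonal to the groups by construction, so fold changes stayed the same and only the estimated spread shrank.

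For the difference from the other times, 3 residual components gave 37 genes (2 lower, 35 higher), and every other setting gave 0, each of the 8 mice left out included. Over the other times (347, with 287 lower and 60 higher), the counts were 541 and 481 lower without a filter, 161 (136 and 25) at 5 TPM, 836 (677 and 159) with edgeR, 936 (762 and 174) with DESeq2 and 1256 (614 and 642) with 3 components. The mitochondrial covariate gave 155 higher genes and a threshold of 0.01 gave 15. Leaving out single mice gave 304 to 377 genes, 261 to 311 lower and 37 to 78 higher. The cause of these shifts was not tested apart from the components.

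Mice with the same replicate number had deviations from their group means that correlated at 0.138, 0.0828, 0.0233 and 0.174 across genes at ZT2. These values are small and all positive, and they cannot decide whether the numbers pair the mice. With the replicate block, 206 genes were called at ZT2 (186 lower, 20 higher) and 0 for the difference; with ZT2 alone and the block, 116 (110 and 6). The log2 fold changes of 0.60 in *Gad1* (SE 0.246) and of -0.75 in *Arc* (SE 0.486) did not pass.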

Other observations

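Genes that PLX5622 mice expressed more highly over the other times were followed at ZT2. Of those 60 genes, 48 had a fold change above 0 at ZT2, 11 lacked overlap between diets there, and 2 passed. Of all genes tested, 63.7% were above 0, 2.55% lay wholly above control and 0.11% were called higher. Their median log2 fold change was 0.26 over the other times and 0.14 at ZT2, against 0.06 over all genes at ZT2. *Cox8b*, a cytochrome c oxidase subunit gene and one of the largest over the other times (log2 fold change 0.93, adjusted p = 0.00844), was at 20.6, 26.5, 9.42 and 5.55 TPM in control mice and at 14.6, 11.2, 12 and 20.8 TPM in PLX5622 mice at ZT2, with a fold change of 0.10. *C4b*, the complement component that astrocytes and oligodendrocytes express, had 9.92, 12.7, 9.95 and 10.9 TPM in PLX5622 mice at ZT2 against 5.66 to 9.62 TPM in control mice, without overlap, and its log2 fold change was 0.45 at ZT2 and 0.58 over the other times (difference -0.13 ± 0.16, unadjusted p = 0.415 in limma). *mt-Atp8*, a mitochondrially encoded ATP synthase subunit, was at 6152 ± 533 TPM in PLX5622 and 4427 ± 672 TPM in control mice at ZT2 without overlap, and did not pass (adjusted p = 0.226).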
